A study of Homo sapiens with 4 samples.

Results

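The genes described here encode the main parts of the actin filament network of non-muscle cells. There are 9 of them: the alpha-actinins ACTN4 and ACTN1, the actins ACTB and ACTG1, the filamin FLNA, the non-muscle myosin heavy chain MYH9 and the tropomyosins TPM1, TPM3 and TPM4. A peak was taken as theirs when the deposited list tested it in the gene's NCBI Gene ID, and each position was counted once. This gave 48 of the 9107 peak positions for HNRNPC and 64 of the 63507 for PABPC4, or 112 of 72614 in all, in 9 of the 13328 gene IDs with a peak in either list. The group was chosen by gene function around ACTN4, and ACTN4 was selected on the height of its PABPC4 peak, one of the tallest in the list. The PABPC4 heights are therefore given as a description.

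All samples came from unmodified MDA-MB-231, a human cell line established from breast cancer and lacking hormone receptors. The cells were irradiated at 254 nm with 400 mJ per square centimetre, which bonds proteins to the RNA they touch, and each protein was then pulled down with its antibody (CLIP). HNRNPC had 2 samples, for which the labels name irCLIP, and PABPC4 had 2, made by PAPERCLIP, in which reverse transcription starts in poly(A) tails. Tags were pooled over both samples before peaks were called, which left 1 peak list per protein, no replicate error for any value and no test between groups. There was no control pull-down, knockdown or second cell line among these samples.

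Actin polymerises into filaments that give cells their shape and let them move. Alpha-actinins and filamin crosslink the filaments, tropomyosins lie along them and set which other proteins can bind, and non-muscle myosin II pulls on them. Each belongs to a family of related genes, and the actins and tropomyosins also have processed pseudogenes. PABPC4 is a poly(A)-binding protein, and its tags are meant to mark mRNA 3′ ends. Not every peak lies at one, since 29.7% of all PABPC4 peaks lay in 3′ UTRs and 60.2% in introns. HNRNPC is a mostly nuclear protein that binds runs of U in pre-mRNA. The end of an mRNA is usually set by a poly(A) signal, AAUAAA or AUUAAA, a short way upstream of the cleavage site.

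The labelled cell type was checked against marker genes in the PABPC4 list. The mesenchymal markers VIM, AXL, MSN and CD44 had 3′ UTR peaks of 10197, 1041, 694 and 331 tags, where a peak's height is the number of pooled unique tags at its summit. The epithelial markers EPCAM and CDH1 reached 88 and 56 tags. Over all protein-coding genes with a 3′ UTR peak the median of the tallest was 73 tags, with quartiles of 33 and 147. Both epithelial markers lay between these quartiles and were not low by this measure. Keratins of epithelial cells outside the marker list were not uniformly low, with KRT7 at 1028, KRT19 at 892, KRT5 at 356 and KRT18 at 301 tags. ESR1 had 0 peaks in its 3′ UTR, and PGR, KRT20 and the muscle genes ACTN2, ACTA1, ACTC1 and MYH7 had 0 peaks in either list. The median PABPC4 peak of the whole list was 38 tags high and 47 nt wide, and the median HNRNPC peak was 11 tags high and 101 nt wide. Heights were not scaled to depth, so they are compared within a list only. The lists hold no measure of how much of each mRNA the cells made, and a taller peak can reflect more mRNA or more tags per mRNA, which cannot be told apart here.

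The last 30 nt of the tallest PABPC4 3′ UTR peak are shown for 8 of the 9 genes because they carry, or lack, the sequence that usually sets an mRNA end. They are RNA sequences read from hg38 on the strand of the gene, 5′ to 3′, and capitals mark the poly(A) signal nearest to the end of the peak. A signal lay in the last 40 nt of the tallest peak in 5 of the 9 genes, where 61.1% of the 9767 protein-coding genes with a PABPC4 3′ UTR peak had one. These 5 windows come from ACTN4 (chr19:38730165-38730194, + strand), ACTG1 (chr17:81509970-81509999, - strand), FLNA (chrX:154348529-154348558, - strand), MYH9 (chr22:36281278-36281307, - strand) and TPM1 (chr15:63071884-63071913, + strand).
ACTN4: uaaaaaagaaagaAUUAAAaacuuucagag
ACTG1: aggaaaAAUAAAagugcugccguaaccaau
FLNA: caagaggAAUAAAguuuugcuuccauucuc
MYH9: gcaucacAAUAAAgagaaccaugugcuacg
TPM1: AAUAAAaugcacauuguaggacauuuucua

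ACTN4 alone among these 5 carried AUUAAA rather than AAUAAA. Its signal started 16 nt before the end of the peak. The AAUAAA of FLNA and MYH9 started 22 nt before the peak's end, that of ACTG1 23 nt and that of TPM1 29 nt. The tallest peaks of the other 4 genes had no AAUAAA or AUUAAA in their last 40 nt. That of ACTN1 had a single-base variant of the signal there, though not within its last 30 nt. The last 30 nt of 3 of the 4 peaks are shown for contrast, with no capitals. They come from ACTB (chr7:5527221-5527250, - strand), ACTN1 (chr14:68874299-68874328, - strand) and TPM3 (chr1:154156535-154156564, - strand).
ACTB: guaugaaggcuuuuggucucccugggagug
ACTN1: cuuuugaaauggcuguuuuuuaaggaagag
TPM3: ucccuacccaguccccauuuucugguaagg

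For TPM4 the peak stopped just short of a signal, since an AAUAAA or AUUAAA began 3 nt downstream of its end. The sequence after the peak was A-rich by the measure used here, which asks for a run of 6 A, or for 7 A among 10 bases, in the 50 nt after a peak. Such stretches matter because a primer that starts in poly(A) tails can also start in an A-rich stretch inside an RNA. TPM4 was the only one of the 9 genes whose tallest peak had one, against 27.1% of all genes with a 3′ UTR peak. Whether the TPM4 peak arose at a tail or at these A was not tested.

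To see where PABPC4 tags fell along these genes, peak centres were assigned to annotated features. All 9 genes had a PABPC4 3′ UTR peak, which 48.7% of the 20052 protein-coding genes had, and in each the tallest of all its PABPC4 peaks lay in the 3′ UTR. The 3′ UTRs held 23 of the 64 peaks, or 35.9% (95% Wilson interval 25.3% to 48.2%, counting error only), against 29.7% in the whole list. Introns held 33 peaks, or 51.6% (39.6% to 63.4%) against 60.2%. The other peaks lay in non-coding exons, with 6, and in coding sequence (CDS), with 2. By height the picture was different. The 3′ UTR peaks held 18477 of 21080 tags summed over the peaks of the 9 genes, or 87.7%, against 45.9% in the whole list. ACTN4 alone held 42.8% of the summed height of the 9 genes, but without ACTN4 the 3′ UTR share was 87.4%.

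The median of the tallest 3′ UTR peak over the 9 genes was 889 tags, with a range from 136 to 6570. Over all protein-coding genes with a 3′ UTR peak the median was 73 tags, with quartiles of 33 and 147. TPM1, the lowest of the 9, was thus between the median and the upper quartile of all genes. The 9 genes did not form 1 level.

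**Figure D1:**
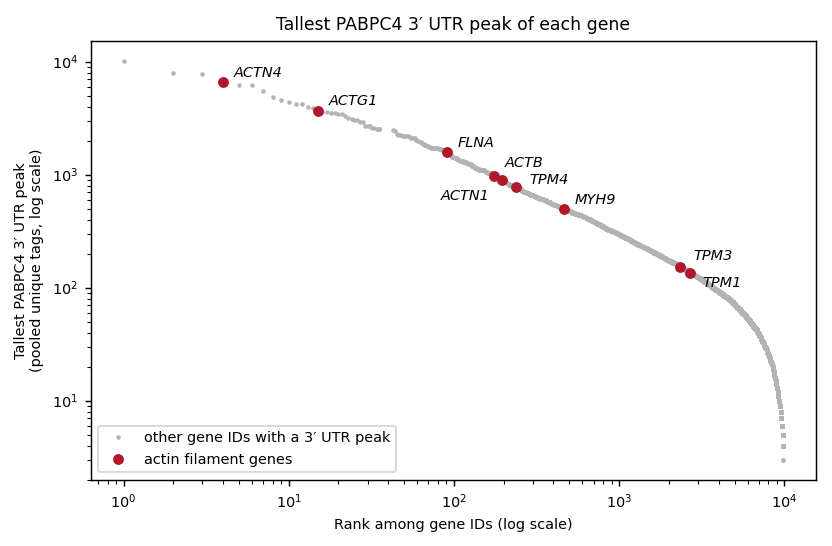
Height of the tallest PABPC4 3′ UTR peak (pooled unique tags, log scale) against its rank over the 9880 gene IDs with such a peak (log scale), with 1 grey point per gene ID and the 9 actin filament genes in red. ACTN4 at 6570 tags stands at rank 4 and TPM1 at 136 tags at rank 2687, and all 9 lie in the upper part of the range, above the median of 73 tags.

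ACTN4, the alpha-actinin that crosslinks filaments at the cell edge and in stress fibres, had a tallest peak of 6570 tags (exact Poisson 95% interval 6412 to 6731). This was rank 4 of the 9880 gene IDs with a PABPC4 3′ UTR peak. Above it were VIM at 10197, GAPDH at 7950 and HMGA1 at 7753 tags. Below it were TMSB10 at 6248 (6094 to 6405), TUBA1B at 6245 and RPS21 at 5493 tags. TMSB10, which encodes the actin monomer binding protein thymosin beta 10, and ACTN4 had intervals that just failed to meet. These are the genes on either side of ACTN4 in an order that chose it, and no test applies.

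The other genes followed in an order with 2 overlaps between neighbours. ACTG1, the cytoplasmic gamma actin, had 3678 tags (3560 to 3799, rank 15), and FLNA had 1572 (1495 to 1652, rank 91). ACTB, the cytoplasmic beta actin, had 975 tags (915 to 1038, rank 175). ACTN1, the closest relative of ACTN4, had 889 (832 to 949, rank 196), and its interval overlapped that of ACTB. TPM4 had 772 tags (718 to 828, rank 239) and MYH9 had 495 (452 to 541, rank 465). TPM3 with 153 tags (130 to 179, rank 2352) and TPM1 with 136 (114 to 161, rank 2687) again overlapped. By tallest peak, then, 1 gene had several times the height of the other for the actinins and the actins. Among the tropomyosins TPM4 stood above TPM1 and TPM3. Summed over 3′ UTR peaks the gap between the actins was smaller, with 3746 tags in ACTG1 and 1744 in ACTB. The 975-tag ACTB peak also had near-identical places elsewhere in the genome, as described below.

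The peak caller also gave for each peak the height expected in that gene by chance, and set against this the order changed. ACTN1 came first, with its tallest peak 1084 times the expected 0.82 tags. ACTN4 followed at 976 times the expected 6.73 tags, and MYH9 at 825 times 0.6 tags. ACTG1, second by height, was 249 times above its expected 14.75 tags, and TPM3 was lowest at 232 times. ACTN1, ACTN4 and MYH9 are the longest of the 9 genes, at 105175, 83941 and 106688 nt by RefSeq, and ACTG1 is the shortest at 2829 nt. Whether gene length has a part in this order was not tested.

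To ask which of several possible 3′ ends carried the tags, the peaks were placed relative to the last base of the RefSeq gene and to the annotated transcript ends of each gene. There were 7 genes with 2 or more PABPC4 3′ UTR peaks, a feature of 51.5% of all genes with one. A peak ended within 50 nt of the RefSeq gene end in 8 of the 9 genes, against 60.7% of all genes, and it was the tallest peak in 4 of them, ACTG1, FLNA, MYH9 and TPM1, against 45.9%. ACTN4 was the 1 gene of the 9 with no peak there. Counting any annotated transcript end of the gene, 14 of the 23 peaks (60.9%, 40.8% to 77.8%) ended within 50 nt of one, against 54.1% in the whole list.

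**Figure D2:**
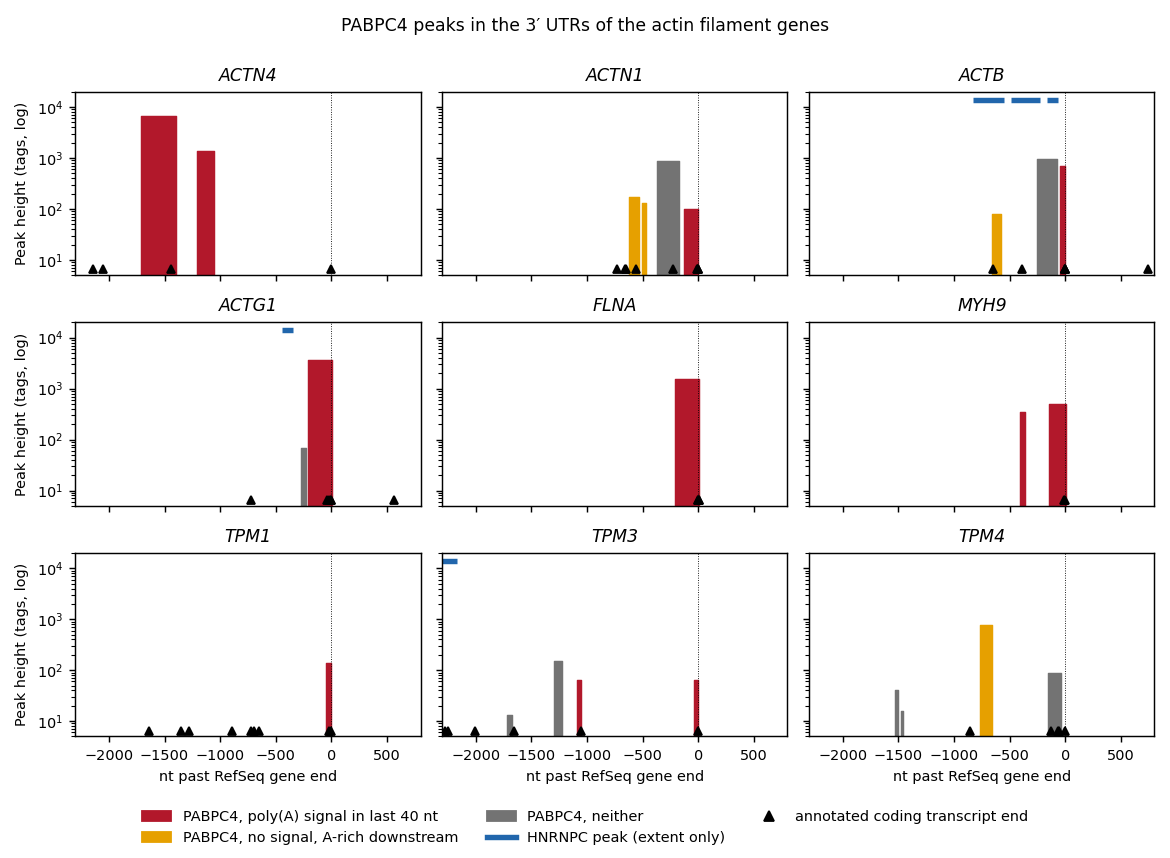
PABPC4 3′ UTR peaks of the 9 genes, 1 panel per gene. The x axis is the distance in nt from the RefSeq gene end (0, dotted line; negative is upstream), bars span each peak and reach its height (tags, log axis that starts at 5), colours give the poly(A) signal and the A-rich stretch, triangles mark annotated ends of coding transcripts and blue lines mark HNRNPC 3′ UTR peaks. ACTN4 has no bar that ends at or near 0, where the other 8 genes have one.

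In ACTN4 the 6570-tag peak spanned chr19:38729879-38730194 and was 316 nt wide, the widest of the 23. Its 3′ edge lay 50 nt past an annotated coding transcript end at 38730144, and 1395 nt before the RefSeq gene end at 38731589. The second peak, chr19:38730382-38730532, had 1373 tags and an AAUAAA, and ended 1057 nt before the gene end with no annotated end within 50 nt. Its last 30 nt (chr19:38730503-38730532, + strand) are shown because this end has a signal but no annotated transcript; capitals mark the signal.
ACTN4 second peak: AAUAAAacauguaauauuuuuaagaaggau
The taller peak held 82.7% of the 3′ UTR height of ACTN4. Of 4 annotated coding ends 1 had a peak within 50 nt, and this assignment sat exactly at the limit. The AUUAAA of the taller peak lay in its last 30 nt, which begin at 38730165, past that annotated end at 38730144. The signal was thus not upstream of the annotated end, and the edge of the peak may be an end that is not annotated, which was not tested.

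ACTN1 divided its tags over 4 3′ UTR peaks. From the gene end upstream they had 98 tags with AUUAAA, 889 tags with no signal, 133 tags and 171 tags. The first ended 1 nt before the gene end, and the tallest 171 nt before it, 19 nt from an annotated transcript end. Both of the upstream peaks had an A-rich stretch. ACTN1 thus had a signal at its last end, which held 7.59% of its 3′ UTR height, and ACTN4 had signals at both of its peaks and no tags called at its last end.

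The last 30 nt of the peaks at the gene ends of the actins are shown together because they share more sequence than any other pair of windows between relatives compared here. They come from ACTB (chr7:5527147-5527176, - strand) and ACTG1 (as above), and capitals mark the signal.
ACTB at the gene end: uugAAUAAAagugcacaccuuaaaaaugag
ACTG1 at the gene end: aggaaaAAUAAAagugcugccguaaccaau
The signal and the 5 bases after it made a shared run of 11 nt. The 2 windows of ACTN4 shared runs of 4 to 10 nt with those of ACTN1, the longest a stretch rich in A, and the tropomyosin windows, compared without that of the tallest TPM4 peak, shared 4 to 8 nt. These are descriptions of short windows in which A-rich and U-rich runs are common.

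ACTG1 put 98.2% of its 3′ UTR height in the peak at its gene end, and a second peak had 68 tags. ACTB had 690 tags at its gene end, while its tallest peak, of 975 tags, ended 73 nt upstream with no signal. Another ACTB peak, of 79 tags, lay near the stop codon, with an A-rich stretch. The 975-tag peak calls for care, since its last 47 nt matched 12 other places in the genome with at most 2 differences. ACTB is known for its many processed pseudogenes, and tags cannot be assigned with certainty between such copies. The last 47 nt of the tallest peak had no other such place in the other 8 genes. Over all 23 PABPC4 3′ UTR peaks of the group 6 had one, and apart from the ACTB pair these were peaks of at most 68 tags in ACTG1, TPM3 and TPM4. The 690-tag ACTB peak at the gene end was not among them.

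FLNA, which joins filaments into an orthogonal network, had a single PABPC4 peak, 1572 tags high, and it ended at the gene end. TPM1 likewise had 1 3′ UTR peak, of 136 tags, which ended 2 nt before the gene end. MYH9 had 2 peaks with AAUAAA each, of 495 tags at the gene end and 341 tags 359 nt upstream. Of its 3′ UTR height 59.2% lay in the taller. The upstream MYH9 peak lay 342 nt from the nearest annotated end, and its last 30 nt (chr22:36281639-36281668, - strand) are shown for that reason, with the signal in capitals.
MYH9 upstream peak: uuguAAUAAAugauaaaauuccgagucuuu
With the second peak of ACTN4, it was 1 of 2 among the 11 peaks with a signal that had no annotated end within 50 nt. The tallest ACTN4 peak met this limit only exactly, with its signal past the annotated end.

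The tropomyosins differed from each other. TPM4 held 84.4% of its 3′ UTR height in the 772-tag peak, which ended 659 nt before the gene end and 2 nt past an annotated transcript end. A peak of 87 tags ended 37 nt before the TPM4 gene end, and 2 more had 40 and 16 tags. TPM3 was the most divided of the 9 genes, with 52.0% of its height in the tallest of 4 peaks. These had 65 tags with AUUAAA at the gene end, 63 tags with AAUAAA 1052 nt upstream at another annotated end, 153 tags without a signal and 13 tags. The 63-tag peak also had an A-rich stretch downstream. The median share of 3′ UTR height in the tallest peak was 82.7% over the 9 genes and 92.7% over all genes.

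Of the 23 3′ UTR peaks, 11 had a signal (47.8%, 29.2% to 67.0%), against 48.6% in the whole list. These 11 held 81.6% of the 3′ UTR height of the group, a share that rests in part on ACTN4 and was 67.8% without it. Their median was 495 tags, against 110 tags for the 12 peaks without one, and without ACTN4 the medians were 341 and 110 tags. In the whole list the medians were 54 and 40 tags. An A-rich stretch lay downstream of 5 of the 23 peaks (21.7%, 9.66% to 41.9%; whole list 32.0%), and these 5 held 6.59% of the height. There were 8 peaks with neither feature, among them the tallest of ACTB, ACTN1 and TPM3, of which that of ACTN1 had a single-base variant of the signal.

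In introns A-rich stretches were more common. Of all 64 PABPC4 peaks of the group 33 had an A-rich stretch downstream (51.6%, 39.6% to 63.4%; whole list 58.5%), and most of them were intronic. It lay downstream of 23 of the 33 intronic PABPC4 peaks (69.7%, 52.7% to 82.6%), against 71.2% of intronic peaks in the whole list. Intronic peaks were lower than those in the 3′ UTRs, with a median of 56 tags against 153 and a range of 15 to 210. The median of all intronic peaks in the list was 35 tags. The tallest intronic peak of the group was in intron 1 of ACTN4 (chr19:38667649-38667705, 210 tags), with an A-rich stretch downstream. Of the 33 intronic peaks 13 had near-identical places elsewhere in the genome, in 1 case 811 of them, for a 25-tag peak of MYH9. ACTN4 had 12 intronic PABPC4 peaks, MYH9 9, TPM3 5, ACTN1 4, ACTB 2 and TPM4 1. The 2 of ACTB lay upstream of the RefSeq gene, within a longer GENCODE transcript.

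To see where HNRNPC touched the same transcripts, its list was read in the same way. HNRNPC peaks were found in 7 of the 9 genes, against 19.0% of all protein-coding genes, and TPM1 and TPM4 had none. Introns held 38 of the 48 peaks, or 79.2% (65.7% to 88.3%), against 85.5% in the whole list. The remaining 10 were exonic, 20.8% (11.7% to 34.3%) against 14.3%. They comprised 5 in 3′ UTRs (10.4% of the 48, against 4.96% in the whole list), 4 in CDS (8.33% against 1.95%) and 1 in a non-coding exon of MYH9. The median number of peaks in the 7 genes was 6, and over all protein-coding genes with a peak it was 1. Transcript levels were not measured, and their part in these counts was not tested.

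**Figure D3:**
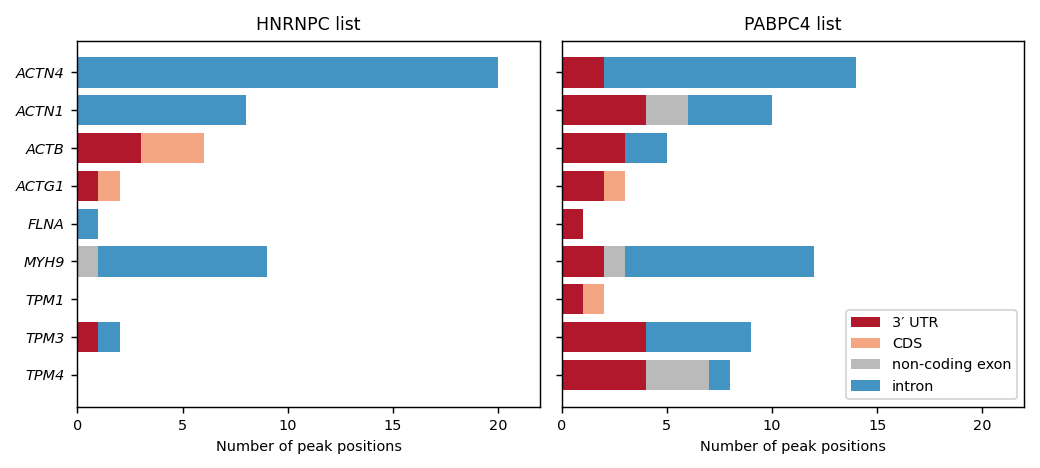
Number of peak positions per gene in the HNRNPC list (left) and the PABPC4 list (right), coloured by the annotated feature that holds the peak centre. ACTN4 has 20 HNRNPC peaks, all intronic, and ACTB has 6, all exonic.

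ACTN4 had 20 HNRNPC peaks, more than any other of the 9 and rank 32 of the 4098 gene IDs with one. All were intronic, with heights from 17 to 83 tags and a median of 21. Of these, 19 lay in intron 1, which at 52692 nt makes up 62.8% of the gene, and 1 in intron 8. ACTN1 offers a close comparison, since its intron 1 is 53279 nt long. It held 6 HNRNPC peaks against 19, and 2 PABPC4 peaks against 11. Per 10 kb this was 1.13 HNRNPC peaks in ACTN1 and 3.61 in ACTN4. The level of each pre-mRNA was not measured, so the difference is one of peaks called and not of binding per molecule. ACTN1 had 8 HNRNPC peaks in all, each intronic and between 14 and 75 tags.

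**Figure D4:**
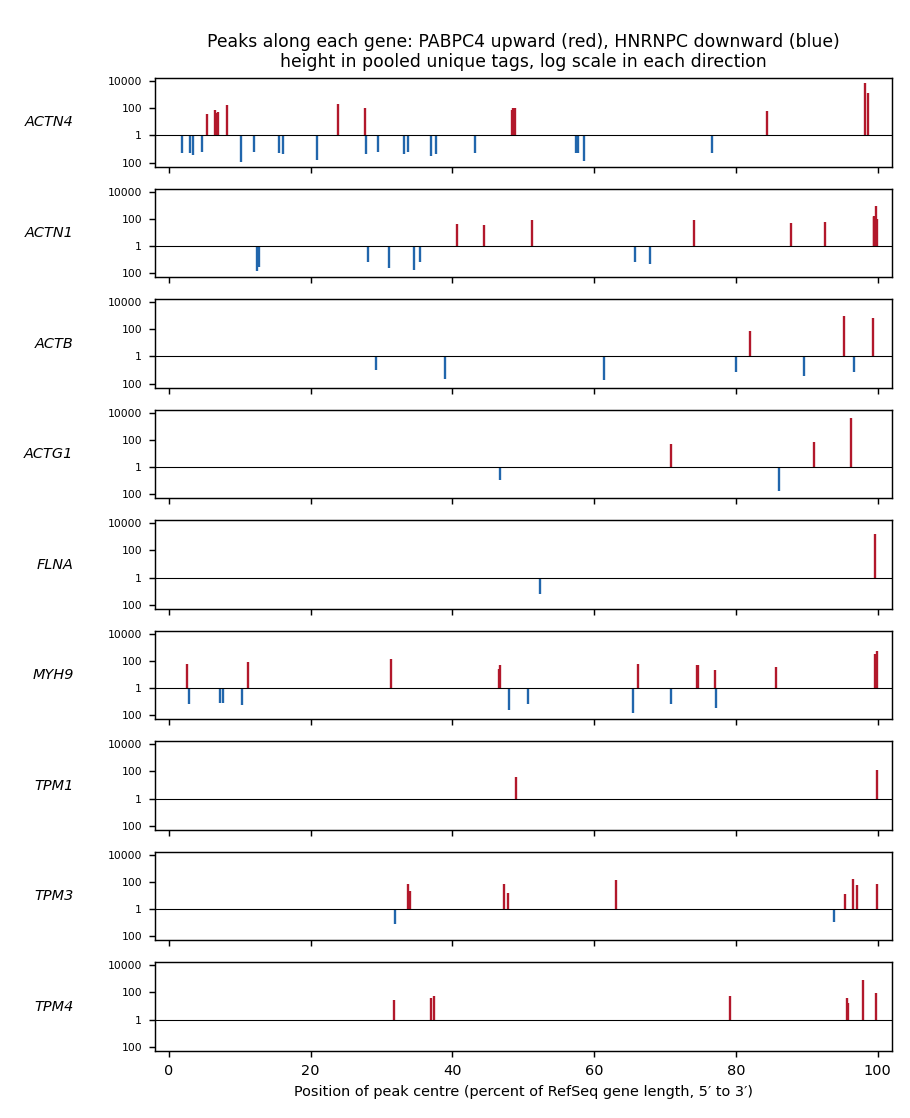
PABPC4 peaks (red, upward) and HNRNPC peaks (blue, downward) along each gene, placed by peak centre in percent of the RefSeq gene length from 5′ to 3′, with height in tags on a log scale in each direction. The tall red lines gather at the 3′ end in every gene and 19 of the 20 blue lines of ACTN4 lie in its intron 1. The 2 intronic ACTB peaks upstream of the RefSeq gene are not drawn.

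MYH9 had 9 HNRNPC peaks of 13 to 72 tags, of which 8 were intronic. FLNA had 1, of 17 tags in intron 21, and TPM3 had 2, of 12 tags in intron 2 and 9 tags in the 3′ UTR. ACTG1 had 2, of 62 tags in the 3′ UTR and 9 in the CDS.

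ACTB differed from the rest, with 6 HNRNPC peaks and none in an intron. The 3 CDS peaks had 56, 45 and 10 tags and the 3 in the 3′ UTR had 14, 27 and 15. One or more CDS peaks occurred in 0.943% of protein-coding genes, and 3 or more in 0.00997%, that is in ACTB and CPNE1 of 20052 genes. The genes with CDS peaks were 2 of the 9, ACTB and ACTG1, both short genes with little intron sequence. A 3′ UTR peak was found in 3 of the 9, ACTB, ACTG1 and TPM3, against 1.98% of protein-coding genes. Near-identical places elsewhere in the genome existed for the first 50 nt of 3 of the 5 3′ UTR peaks and 1 of the 4 CDS peaks, the 45-tag one of ACTB. They numbered 3 for the 27-tag ACTB peak, 3 for the 62-tag ACTG1 peak and 4 for the TPM3 peak. Among the 38 intronic HNRNPC peaks 6 had such places. For the tallest ACTN1 peak, of 75 tags, there were 3151, for 3 ACTN4 peaks of 17, 20 and 25 tags 3213, 150 and 2, for the single FLNA peak 169 and for 1 MYH9 peak of 17 tags 1, so these peaks are uncertain.

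HNRNPC and PABPC4 peaks overlapped in ACTB only. Its 3 HNRNPC 3′ UTR peaks each overlapped a PABPC4 peak, by 90, 30 and 81 nt, which makes 3 of the 48 HNRNPC peaks of the group. The overlaps of 90 and 30 nt were with the same PABPC4 peak, of 975 tags, whose last 47 nt had 12 other near-identical places. The overlap of 81 nt was with the 79-tag PABPC4 peak, which had 1 such place, so these overlaps are uncertain. Of all HNRNPC peaks 0.944% overlapped a PABPC4 peak, and of those in 3′ UTRs 7.3%. Within 100 nt there were 6 of 48, or 12.5%, against 2.26% in the whole list, and the 3 added ones were in ACTG1 (65 nt, in the 3′ UTR), ACTN4 (51 nt, in intron 1) and MYH9 (70 nt, in an intron). None of the 4 tallest PABPC4 peaks of the group, in ACTN4, ACTG1 and FLNA, was overlapped by an HNRNPC peak.

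Runs of U, which HNRNPC is known to bind, were looked for as UUUUU from 50 nt upstream of the peak's 5′ end to 10 nt inside it, on the strand of the gene. They lay at 19 of the 48 peaks, or 39.6% (27.0% to 53.7%), against 34.2% in the whole list. Among the intronic peaks it was 17 of 38, or 44.7% (30.1% to 60.3%), against 35.3%. By gene the count was 7 of 20 in ACTN4, 6 of 8 in ACTN1, 3 of 9 in MYH9, 2 of 6 in ACTB and the 1 peak of FLNA. The windows around the longest U run are shown for the tallest peaks of ACTN4 and ACTN1 and for the ACTB 3′ UTR peak of 27 tags, as examples of where the run lay. In ACTN4 and ACTB it was next to the 5′ end of the peak, and in ACTN1 it lay wholly upstream of the peak. The ACTN1 and ACTB peaks had 3151 and 3 near-identical places elsewhere in the genome, so both examples are uncertain. The windows come from ACTN4 (chr19:38656071-38656100, + strand, 83 tags), ACTN1 (chr14:68966237-68966266, - strand, 75 tags) and ACTB (chr7:5527628-5527657, - strand), with the run in capitals.
ACTN4: cauuuguuccucacacaacUUUUUUcuuuc
ACTN1: guuaagcacuucUUUUUUUaaaaacaaaau
ACTB: uuuuuuguuuuguuuuggUUUUUUUUUUUU

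A sequence that is not a run of U, GUGUCA, was common at the other end of HNRNPC peaks. It started in the last 15 nt of 32.2% of all HNRNPC peaks, on the strand of the gene, and of 8 of the 48 in these genes, or 16.7% (8.70% to 29.6%). There were 3 in ACTN4, 2 in ACTN1, 2 in MYH9 and 1 in ACTG1, and ACTB had none. Windows of 30 nt that end 10 nt past the peak are shown for the tallest such peak of ACTN4, ACTG1 and MYH9, because they show where the sequence lay relative to the end of the peak. They come from ACTN4 (chr19:38696861-38696890, + strand, 79 tags), ACTG1 (chr17:81510303-81510332, - strand, 62 tags) and MYH9 (chr22:36305494-36305523, - strand, 28 tags), with the 6 bases in capitals.
ACTN4: uggggcuuugccuGUGUCAgucaggaagac
ACTG1: caggguauuaacGUGUCAgggcugaguguu
MYH9: gacugugcugaGUGUCAguugcugucggga
In these windows GUGUCA began 6, 7 and 8 nt before the last base of the peak, and over all 8 peaks 1 to 9 nt before it. The 8 peaks with it had 16 to 79 tags, with a median of 23.5, and the 19 with UUUUU had 13 to 83 tags, with a median of 20. Both were found at 3 peaks, and the 62-tag ACTG1 peak, the tallest HNRNPC 3′ UTR peak of the group, had GUGUCA and no U run. Whether HNRNPC binds this sequence, and what places it at the ends of peaks, was not tested.

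Other genes of the actin network were read from a list of 52, from textbook knowledge. Of these 52, 46 had a PABPC4 peak, against 59.2% of all protein-coding genes. A 3′ UTR peak was found in 44, against 48.7% of all protein-coding genes. The median of their tallest 3′ UTR peaks was 316 tags, with a range from 21 to 4824. The tallest were MYL6 at 4824 tags and MYL12B at 748, both light chains of non-muscle myosin, TAGLN2 at 912, a relative of the actin-binding transgelin, ARPC2 at 882, part of the Arp2/3 complex that nucleates branched filaments, and MSN at 694, which ties filaments to the membrane. The 6 muscle relatives in the list, ACTN2, ACTN3, ACTA1, ACTA2, ACTC1 and ACTG2, had 0 PABPC4 3′ UTR peaks. HNRNPC peaks occurred in 25 of the 52, against 19.0% of all protein-coding genes. HNRNPC 3′ UTR peaks occurred in 7, against 1.98% of all protein-coding genes, namely in MYLK, CNN2, SPTBN1, LASP1, CTTN, CAPZB and ARPC4.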

How the data were processed

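The 9 genes, the lists and the measures were chosen with earlier results of these data known. The authors collapsed reads by molecular identifier, trimmed them with cutadapt, aligned them with BWA 0.7.17 to hg38, used UMI-tools and discarded PCR duplicates. Their peaks came from the valley-seeking caller of the CLIP Tool Kit, corrected for multiple testing. These steps were described for HNRNPC, and not separately for PABPC4. The name of the HNRNPC list gives HITS-CLIP where the labels give irCLIP, and this was not settled. The deposited signal was the height of each peak in pooled unique tags, not scaled to depth. The name column that the authors deposited held the gene ID, the expected height and a p-value, a text field of another kind. Library depth was not analysed here, so no precision follows from it, and intervals (Wilson for shares, exact Poisson for heights, 95%) cover counting error only. Peaks of a gene are not independent.

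Positions listed under several gene IDs were counted once. Ranks were taken over gene IDs, each with all its positions. Features came from GENCODE 44 protein-coding transcripts through the centre of the peak, strand-matched, with precedence 3′ UTR, CDS, 5′ UTR, non-coding exon, intron. Gene ends and lengths came from the RefSeq table of GRCh38.p14. Sequences came from hg38. Near-identical places were sought with BLAST+ 2.17.0, using the last 47 nt of PABPC4 peaks and the first 50 nt of HNRNPC peaks and allowing 2 differences without gaps. The sequence searches were tested on simulated data. Python 3.11.15, pandas 2.3.3, SciPy 1.17.1 and pysam 0.24.0 were used. Named were all 9 genes, from the list of 52 those 5 whose tallest PABPC4 3′ UTR peak was highest and each with an HNRNPC 3′ UTR peak, and 3 genes on either side of ACTN4 in the order of heights. CPNE1 and the listed pseudogenes were named after their values were seen. The sequence at the tallest TPM4 peak is not reported here. No protein table was used and repeats were not annotated. Alternatives covered p-value and height limits, windows, signal and motif definitions, annotation sets and 100-nt distances.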

Additional observations from a re-analysis of the deposited data

Results flagged for a closer look

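Peaks listed under pseudogenes or close copies of the 9 genes were not used above and exceeded the 3 tags that a count of 0 allows, with no control samples to compare. That limit says little, since the lowest 3′ UTR and intronic peaks of the PABPC4 list themselves had 3 tags. The list median was 38 tags, above the peaks of ACTG1P20 and POTEF given next. Of 65 such gene symbols (pseudogenes of the 9 genes, and the POTE genes, which carry an actin-like part), 3 had a peak, all in the PABPC4 list, and there were 0 in the HNRNPC list. TPM3P9 had 5 peaks of 18 to 61 tags, ACTG1P20 had 2 peaks of 8 tags each, and POTEF had 1 of 7 tags. For comparison, the tallest peaks of TPM3, ACTG1 and ACTB had 153, 3678 and 975 tags. Whether these tags came from the copies or from the 9 genes was not tested.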

How the results depend on the processing

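No paired analysis was possible because each protein had 1 list made from both samples, which also kept any replicate from being left out. Of 37 alternative values, 28 stayed close to the value above and 9 moved. Close meant within the 95% interval for a share or a height, within 1 SD over the 9 genes for the median share in the tallest peak, and within 1.5 times for a count. The share of PABPC4 peaks in 3′ UTRs rose from 35.9% to 58.1% without peaks that had an A-rich stretch. The share of 3′ UTR peaks at an annotated end was 60.9% within 50 nt, 78.3% within 100 nt and 34.8% with the RefSeq gene end alone, an alternative chosen after seeing the data, as was the use of every coding transcript type for 3′ UTRs. The share of peaks with an A-rich stretch was 51.6%, and 37.5% with 6 A in a row only or 35.9% within 20 nt. The median of 889 tags became 1291 with summed 3′ UTR height. By the summed height of all peaks 4 of the 9 genes kept their place, with ACTN4 and ACTG1 still first and TPM3 and TPM1 last. HNRNPC peaks near a PABPC4 peak went from 3 to 6 within 100 nt. UUUUU lay inside 20.8% of HNRNPC peaks, against 39.6% near the 5′ end. With every coding transcript type there were 7 HNRNPC 3′ UTR peaks instead of 5. The pooled lists limit all values to these libraries.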
